A study of Mus musculus with 6 samples.

Results

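The globin genes encode the alpha-type and beta-type chains of haemoglobin, the oxygen carrier of red blood cells. Their mRNA was measured in whole gut of E10.5 mouse embryos. The set was 8 gene symbols, and every line of the deposited gene table that holds 1 of them was taken: Hba-x, Hba-a1 and Hba-a2 of the alpha family, and Hbb-y, Hbb-bh1, Hbb-b1, Hbb-b2 and Beta-s of the beta family. They fall on 7 of 23233 lines, 3 of which carry a pair of merged symbols, and all 7 lines had been tested by the authors. The groups were 3 gut samples labelled Ret null, Ret being the GDNF receptor gene of enteric neural crest, and 3 wildtype gut samples. C57BL/6J is the strain given for all 6, and the stated sex is male. The labels say neither how the null allele was made nor whether a sample pools several embryos. No label states separate litters.

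Haemoglobin is a tetramer of 2 alpha-type and 2 beta-type chains, and mammals switch the genes used during development. In the mouse, primitive red cells arise in the yolk sac and use the embryonic genes Hba-x (zeta), Hbb-y (epsilon y) and Hbb-bh1 (beta H1), though not these alone. Definitive red cells arise later, first in number in the fetal liver, and use the adult-type alpha and beta genes. The gut is not a known site of red cell formation at this stage.

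The deposited table gives 1 FPKM value (fragment abundance corrected for transcript length and for sequencing yield) per genotype, scaled to length so that genes can be set side by side. It holds no value per sample, hence no spread, and depth is unknown. Errors after ± are standard errors of the log2 fold change, obtained by dividing that fold change by the authors' test statistic, and the deposited q-values are not what these errors would give. All fold changes are Ret null over wildtype, and a gene is said to rise or fall only at q under 0.05 in the Cuffdiff test of the authors' deposited table. Ret itself stood at 0.0354 FPKM in Ret null gut and 8.80 FPKM in wildtype gut (log2 fold change -7.96 ± 1.18, q = 0.0042 per the authors' deposited table). Xist, which is transcribed from the inactive X chromosome of female cells, stood at 31.8 FPKM in Ret null gut and 0.136 FPKM in wildtype gut. The Y-linked genes Kdm5d, Eif2s3y, Uty and Ddx3y in Ret null gut were at 0.502 to 0.61 times their wildtype level. The Ret null value therefore goes against the stated male sex, and sex and genotype cannot be told apart in any result below. Markers of gut tissues and of neighbouring organs also differed. Of 12 tested hepatic markers 10 rose and 0 fell, and of 6 skeletal muscle markers 0 rose and 6 fell. Of 6 enteric crest and neuron markers 0 rose and 5 fell (Ret itself among them), and of 7 gut endoderm markers 7 rose and 0 fell. Over all 13430 tested lines, 5.69% rose and 8.88% fell.

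Embryonic globin mRNAs fell and 1 adult-type beta mRNA rose in Ret null gut. All 3 embryonic lines fell, by 0.56 to 1.54 on the log2 scale. Of the 4 adult-type lines, Beta-s rose 4.1-fold and the other 3 did not pass. Beta-s shares most of its sequence with the line at Hbb-bt, so its own value is uncertain, and the sum of both was 2.04-fold higher in Ret null gut. Thus 4 of 7 globin lines were called, where 14.6% of all 13430 tested lines were called (8.88% lower and 5.69% higher). Among the 653 tested lines at a mean of 100 FPKM or more, a group that holds all 7 globin lines, 6.43% were called (2.3% lower and 4.13% higher). Beta-s and Hbb-bh1 are in that group through the genotype in which they are high, since each is under 100 FPKM in the other. When the authors' statistic was instead read as a normal deviate and its p adjusted over all tested lines (the normal p below), 2 globin lines were lower and 1 higher, where 4.5% of all tested lines were called (2.78% lower and 1.72% higher). In bulk tissue, a change in the number or kind of red cells and a change in globin mRNA per red cell cannot be told apart.

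How far the lines can be separated depends on how alike their sequences are. The first 90 coding bases are shown for the beta genes and for an embryonic and an adult alpha gene, because they show which members can share reads. Capitals mark bases that differ from Hbb-bs in the beta genes and from Hba-a1 in Hba-x (GENCODE M21 transcripts, GRCm38, sense strand).
Hbb-y: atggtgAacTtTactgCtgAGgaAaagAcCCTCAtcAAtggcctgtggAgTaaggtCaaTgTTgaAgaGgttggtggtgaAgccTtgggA
Hbb-bh1: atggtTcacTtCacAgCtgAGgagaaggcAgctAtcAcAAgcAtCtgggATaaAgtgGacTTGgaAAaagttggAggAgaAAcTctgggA
Hbb-bs: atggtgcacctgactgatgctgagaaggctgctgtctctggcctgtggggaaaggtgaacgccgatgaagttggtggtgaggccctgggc
Hbb-bt: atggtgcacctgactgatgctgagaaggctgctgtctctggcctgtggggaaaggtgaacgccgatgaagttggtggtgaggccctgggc
Hba-x: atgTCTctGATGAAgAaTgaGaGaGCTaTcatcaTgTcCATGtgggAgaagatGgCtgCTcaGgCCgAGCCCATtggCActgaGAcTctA
Hba-a1: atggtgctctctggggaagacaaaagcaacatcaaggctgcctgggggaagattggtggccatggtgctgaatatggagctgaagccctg
In these windows Hbb-y differs from Hbb-bs at 26 bases, Hbb-bh1 at 29 and Hbb-bt at 0, and Hba-x differs from Hba-a1 at 44.

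Over the whole open reading frame of 444 bases, Hbb-bs and Hbb-bt differ at 1 base. Hba-a1 and Hba-a2, with 429 coding bases each, also differ at 1. Coding identity between embryonic and adult genes was lower, at 74.3% for Hbb-y and 74.1% for Hbb-bh1 against Hbb-bs, and at 62.0% for Hba-x against Hba-a1. The 2 embryonic beta genes shared 76.4% of coding bases. Reads of 75 bases can be ambiguous between the adult copies: 64.3% of the 75-base windows of the Hbb-bs transcript also occur in Hbb-bt, and 81.0% of those of Hba-a2 occur in Hba-a1. No 75-base window was shared between Hbb-bh1 and Hbb-y, between Hbb-bh1 and Hbb-bs, or between Hba-x and Hba-a1. How the authors' counting divided reads of identical copies is not given in the sources used here, so the split within each adult pair is uncertain and each pair is also given as a sum.

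Symbols and positions need care in the same lines. Both adult alpha lines carry the merged symbols Hba-a1 and Hba-a2, and they are told apart here by position. The Beta-s line lies on chromosome 7, 103826523 to 103827928 (mm10), exactly the RefSeq position of Hbb-bs, for which Beta-s is a listed synonym. The line named Hbb-b1 and Hbb-b2 lies on chromosome 7, 103812524 to 103813923, exactly the RefSeq position of Hbb-bt. C57BL/6 mice carry the beta haplotype with Hbb-bs and Hbb-bt, and Hbb-b1 and Hbb-b2 are the names of the adult pair of another haplotype.

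Hbb-y, the embryonic epsilon-type beta chain, was the most abundant globin mRNA in both genotypes. It stood at 3070 FPKM in Ret null gut and 4532 FPKM in wildtype gut, which was rank 14 of all lines in Ret null gut and rank 4 in wildtype gut. It fell by 0.56 ± 0.20 on the log2 scale, with q = 0.00468 per the authors' deposited table. It is the least secure of the 4 calls: by the normal p its adjusted p was 0.0996. The gene lies on chromosome 7, 103851754 to 103853207.

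Hbb-bh1, the other embryonic beta chain, had the largest fall among the globins. It was at 96.8 FPKM in Ret null gut, against 281 FPKM in wildtype gut, 2.9-fold lower in Ret null gut. The log2 fold change was -1.54 ± 0.15 (q = 0.000775, which no line goes below, per the authors' deposited table). It lies on chromosome 7, 103841638 to 103843162. The ratio of Hbb-y to Hbb-bh1 was 31.7 in Ret null gut and 16.1 in wildtype gut, and the difference between these 2 genes was not tested.

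Hba-x, the embryonic zeta-type alpha chain, had the second highest globin level in wildtype gut. It stood at 627 FPKM in Ret null gut and 1408 FPKM in wildtype gut (log2 fold change -1.17 ± 0.15, q = 0.000775 per the authors' deposited table). The ratio of Hba-x to Hbb-y was 0.204 in Ret null gut and 0.311 in wildtype gut. In Ret null gut the adult alpha line at Hba-a1, at 664 FPKM, was above Hba-x, whereas in wildtype gut it was below Hba-x, at 566 FPKM.

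The adult alpha lines did not pass the test. The line at Hba-a1 stood at 664 FPKM in Ret null gut and 566 FPKM in wildtype gut and differed by 0.23 ± 0.19 in log2 between genotypes (q = 0.147 per the authors' deposited table). The line at Hba-a2 stood at 321 FPKM in Ret null gut and 347 FPKM in wildtype gut, which differ by -0.11 ± 0.19 in log2 (q = 0.634 per the authors' deposited table). Their sum was 985 FPKM in Ret null gut and 912 FPKM in wildtype gut, a difference of 0.11 on the log2 scale.

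Beta-s, the adult-type beta chain of the C57BL/6 haplotype, was the globin that rose. It stood at 338 FPKM in Ret null gut and 82.5 FPKM in wildtype gut, which was rank 181 of all lines in Ret null gut and rank 797 in wildtype gut. The log2 fold change was 2.03 ± 0.15, with q = 0.000775 per the authors' deposited table. It was the lowest globin line in wildtype gut, and in Ret null gut it stood above the Hbb-b1,Hbb-b2 line and above Hbb-bh1. That neighbour, the Hbb-b1,Hbb-b2 line at Hbb-bt, was at 201 FPKM in Ret null gut and 182 FPKM in wildtype gut (0.15 ± 0.19, q = 0.49 per the authors' deposited table). Summed over the near-identical pair, adult-type beta mRNA was 539 FPKM in Ret null gut and 264 FPKM in wildtype gut, 2.04-fold higher.

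**Figure D1:**
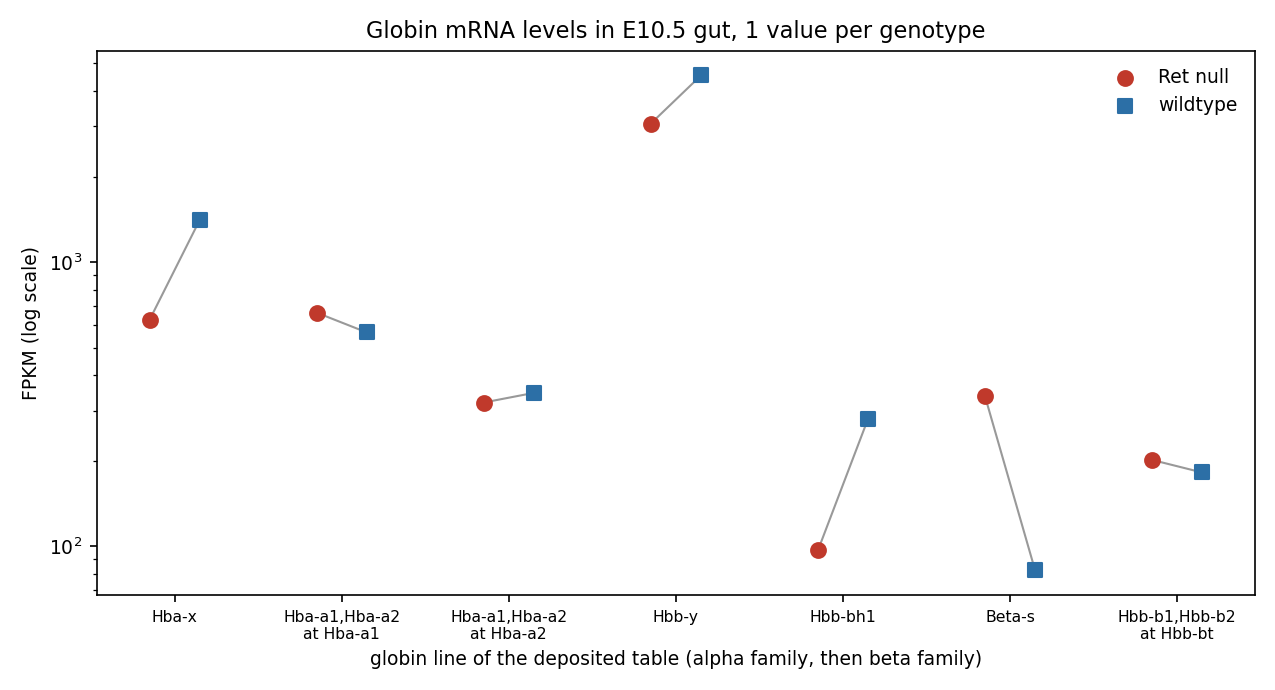
FPKM of the 7 globin lines on a log axis, Ret null (circles) left of wildtype (squares), each point 1 deposited value for that genotype. Hba-x, Hbb-y and Hbb-bh1 are lower in Ret null gut, Beta-s is higher (338 against 82.5 FPKM), and the other 3 lines lie close together.

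The order of levels differed between genotypes. In Ret null gut the order was Hbb-y, the line at Hba-a1, Hba-x, Beta-s, the line at Hba-a2, the line at Hbb-bt and Hbb-bh1. In wildtype gut it was Hbb-y, Hba-x, the line at Hba-a1, the line at Hba-a2, Hbb-bh1, the line at Hbb-bt and Beta-s. With 1 value per genotype the spread of a level is unknown, so close neighbours such as the line at Hba-a1 and Hba-x in Ret null gut (664 and 627 FPKM) are not separated.

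Embryonic mRNA made up less of the globin total in Ret null gut. The 3 embryonic lines summed to 3794 FPKM in Ret null gut and 6221 FPKM in wildtype gut, which was 71.3% of the summed globin FPKM in Ret null gut and 84.1% in wildtype gut. The 4 adult-type lines summed to 1524 FPKM in Ret null gut and 1177 FPKM in wildtype gut. The ratio of embryonic to adult-type mRNA was 2.49 in Ret null gut and 5.29 in wildtype gut, a change of -1.09 on the log2 scale. The change had the same sign in both families. In the alpha family the ratio was 0.637 in Ret null gut and 1.54 in wildtype gut, and in the beta family it was 5.87 in Ret null gut and 18.2 in wildtype gut. Without the Beta-s line, an alternative chosen after seeing the data, the change of the ratio was -0.83, and without the 3 merged lines, which leaves Beta-s as the adult type, it was -2.75. These ratios have no replicate check, and they are ratios of mRNA, not of primitive to definitive red cells.

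**Figure D2:**
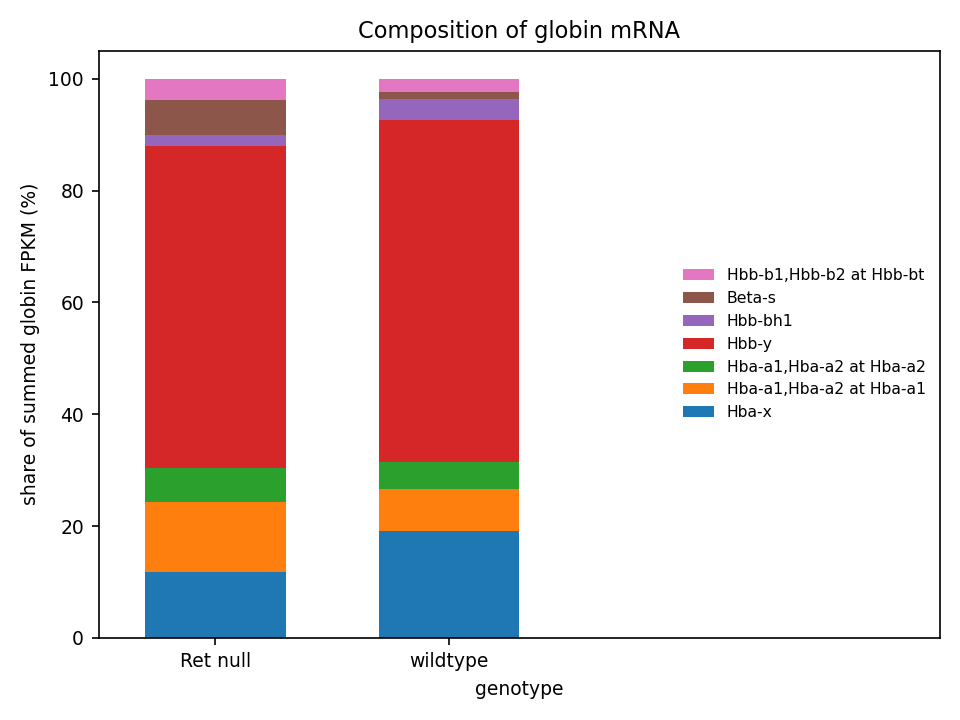
Share of each line in the summed globin FPKM (percent), 1 bar per genotype, Ret null left of wildtype. Hbb-y holds 57.7% in Ret null and 61.3% in wildtype, Hba-x holds 11.8% in Ret null and 19.0% in wildtype, and Beta-s holds 6.35% in Ret null and 1.12% in wildtype.

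The balance of alpha to beta mRNA was close between genotypes. The ratio of summed alpha to summed beta FPKM was 0.435 in Ret null gut and 0.457 in wildtype gut, a change of -0.07 on the log2 scale. Within each type the ratio was lower in Ret null gut. Embryonic alpha to embryonic beta was 0.198 in Ret null gut and 0.292 in wildtype gut, and adult alpha to adult-type beta was 1.83 in Ret null gut and 3.45 in wildtype gut. The sum over all 7 lines was 5318 FPKM in Ret null gut and 7398 FPKM in wildtype gut, which was 1.01% of the FPKM summed over the whole table in Ret null gut and 1.46% in wildtype gut.

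Both families are clusters in which the embryonic genes lie first in the direction of transcription. In the alpha cluster on chromosome 11, Hba-x is followed by the adult lines 7.07 and 19.9 kb further on. In the beta cluster on chromosome 7, Hbb-y is followed by Hbb-bh1 at 10.0 kb, Beta-s at 25.3 kb and the line at Hbb-bt at 39.3 kb. The largest fall and the only rise among the 7 lines were in Hbb-bh1 and Beta-s. Among these 7 lines they follow each other, but Hbb-bh2, which was not tested, lies between them.

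**Figure D3:**
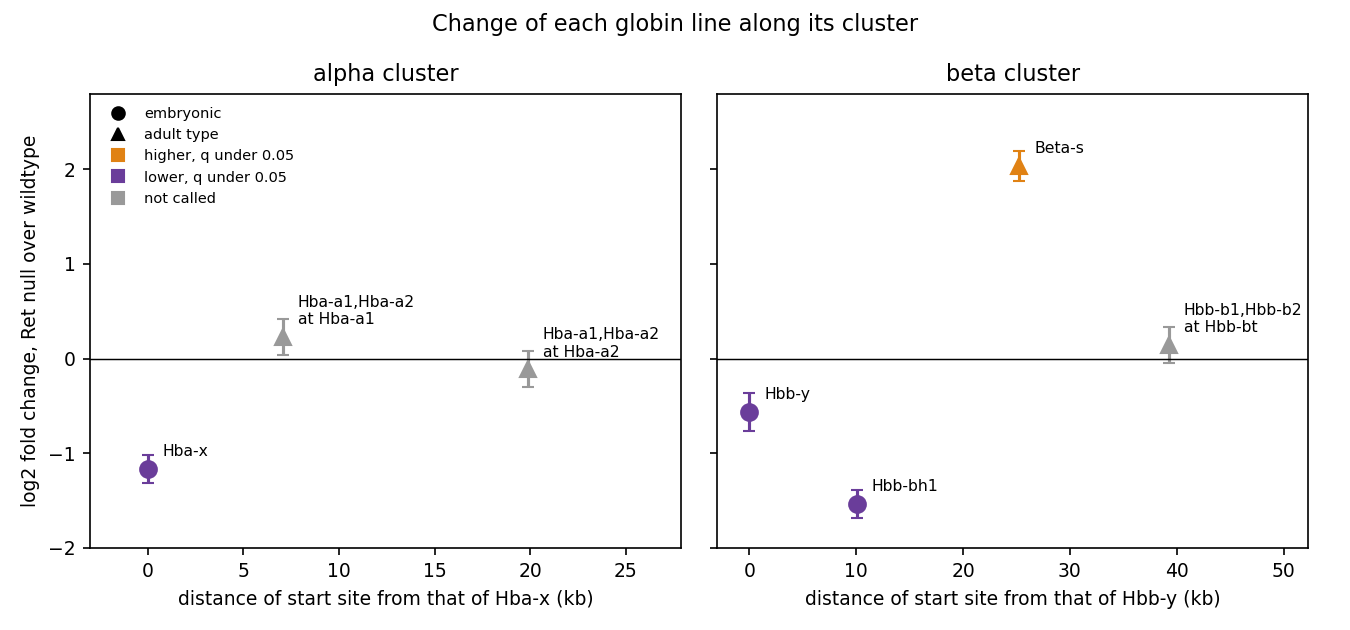
Log2 fold change (Ret null over wildtype, bars ± the implied standard error) of each globin line against the distance of its start site from the first gene of its cluster in kb, with embryonic genes as circles and adult type as triangles. Embryonic genes lie below 0 in both clusters, and Beta-s is at 2.03.

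The lines beside the clusters are few. Of 8 other lines within 100 kb of an alpha line, 6 were tested and 0 were called, with 0 at an unadjusted p under 0.05 and 0 with the normal p. With 14.6% of all tested lines called, 0 of 6 is near the background. Their log2 fold changes ran from -0.11 to 0.16. Nprl3, whose introns hold the alpha-globin enhancers, stood at 12.3 FPKM in Ret null gut and 12.6 FPKM in wildtype gut. Mpg, a DNA repair glycosylase gene listed at the same span as Nprl3, was at 12.7 FPKM in Ret null gut and 13.2 FPKM in wildtype gut. Snrnp25 was at 23.2 FPKM in Ret null gut and 22.8 FPKM in wildtype gut, Rhbdf1 at 24.9 FPKM in both, and Sh3pxd2b at 20.8 FPKM in Ret null gut and 18.6 FPKM in wildtype gut. The theta-type globin gene Hbq1b was at 1.38 FPKM in Ret null gut and 1.49 FPKM in wildtype gut. Of 14 lines within 100 kb of a beta line, 13 are olfactory receptor genes and the other is Hbb-bh2. None was tested, 10 were listed at 0 in both genotypes, and the highest value was 0.166 FPKM. Of the 3 tested lines of other globin-fold genes, 1 fell: myoglobin (Mb), the oxygen-binding protein of striated muscle, at 0.182 FPKM in Ret null gut and 1.42 FPKM in wildtype gut (q = 0.0249 per the authors' deposited table). It was not called with the normal p. Cygb and Hbq1b did not pass.

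The stretch before the start site is shown for 6 members because the calls differed between embryonic and adult-type genes of each family. Each is the 120 bases that end at the base before the RefSeq start (GRCm38.p6), 5′ to 3′ on the gene's strand. Capitals mark a match on either strand to CACCC (known for Klf factors), to CCAAT (for NF-Y), to GATAA (for Gata factors) or to TATAA (for the TATA-binding protein), so that CCAAT on the opposite strand reads as ATTGG.
Hba-x, chr11:32276480-32276599, plus strand: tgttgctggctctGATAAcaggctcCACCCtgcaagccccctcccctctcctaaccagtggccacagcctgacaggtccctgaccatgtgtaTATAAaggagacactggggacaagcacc
Hba-a1, chr11:32283552-32283671, plus strand: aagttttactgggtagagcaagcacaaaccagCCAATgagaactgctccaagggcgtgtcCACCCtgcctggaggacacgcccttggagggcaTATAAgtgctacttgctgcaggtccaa
Hba-a2, chr11:32296372-32296491, plus strand: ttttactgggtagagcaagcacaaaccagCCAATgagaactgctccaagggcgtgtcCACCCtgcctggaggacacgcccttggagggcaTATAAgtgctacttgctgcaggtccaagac
Hbb-y, chr7:103853208-103853327, minus strand: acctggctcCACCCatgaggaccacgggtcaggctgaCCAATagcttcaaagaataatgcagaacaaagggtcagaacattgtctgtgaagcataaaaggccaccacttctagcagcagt
Hbb-bs, chr7:103827929-103828048, minus strand: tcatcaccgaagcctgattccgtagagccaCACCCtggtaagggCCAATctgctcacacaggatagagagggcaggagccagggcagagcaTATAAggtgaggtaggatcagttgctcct
Hbb-bt, chr7:103813924-103814043, minus strand: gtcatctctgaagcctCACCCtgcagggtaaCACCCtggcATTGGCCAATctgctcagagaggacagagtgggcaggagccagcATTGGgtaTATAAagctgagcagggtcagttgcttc
Hbb-bh1 is not shown. Within 150 bases before the start CACCC was found in 6 of 6, CCAAT in 5 of 6, TATAA in 5 of 6 and GATAA in 1 of 6 of these promoters. Over 32851 RefSeq promoters the same window held CACCC in 37.4%, CCAAT in 24.5%, TATAA in 14.2% and GATAA in 13.3%. Hba-x had no CCAAT and was the member with GATAA, 107 bases before the start. Hbb-y had no TATAA. Hbb-bs had 1 CACCC and 1 CCAAT, and Hbb-bt had 3 of each, of which 2 CCAAT were on the opposite strand and 1 of those adjoined the forward copy. The searched windows of Hba-a1 and Hba-a2 shared a run of 147 identical bases, and the longest run shared by Hbb-bs and Hbb-bt was 14 bases, although their coding sequences differ at 1 base.

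Among other genes of red cells, factors and red cell proteins held most of the calls. Over 3 lists of erythroid transcription factors, haem and iron handling and red cell proteins, 17 of 48 tested members rose and 2 fell. This was 39.6% called over the 3 lists together, where all tested lines had 14.6%, and the median log2 fold change was 0.14, where that of all tested lines was 0.01. With the normal p far fewer passed: 1 factor, 2 haem synthesis genes and 3 red cell proteins higher, and 0 lower. By that measure 4.5% of all tested lines were called, 2.78% lower and 1.72% higher.

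Among 15 erythroid transcription factors 6 rose and 2 fell. Gata1, the factor required for red cell maturation, stood at 3.12 FPKM in Ret null gut and 0.906 FPKM in wildtype gut (1.78 ± 0.49, q = 0.000775 per the authors' deposited table). Klf1, an activator of adult beta-globin, was at 4.01 FPKM in Ret null gut and 2.12 FPKM in wildtype gut (0.92 ± 0.42, q = 0.0113 per the authors' deposited table). Gfi1b, a repressor needed for red cell and megakaryocyte formation, rose by 1.32 ± 0.71 (q = 0.0167 per the authors' deposited table). Its level was low, at 1.39 FPKM in Ret null gut and 0.556 FPKM in wildtype gut. With the normal p, Klf1 and Gfi1b did not pass (adjusted p 0.321 and 0.527). Sox6, which silences Hbb-y in definitive mouse red cells and acts in muscle and cartilage as well, fell by 0.64 on the log2 scale, with 2.73 FPKM in Ret null gut and 4.27 FPKM in wildtype gut (q = 0.000775 per the authors' deposited table).

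Of 12 tested genes of haem synthesis and mitochondrial iron 2 rose and 0 fell, a share near the 14.6% called over all tested lines, and the median log2 fold change was 0.05. Alad, the second enzyme of the pathway, was at 19.1 FPKM in Ret null gut and 9.95 FPKM in wildtype gut, and Cpox, which makes protoporphyrinogen, was at 14.2 FPKM in Ret null gut and 8.99 FPKM in wildtype gut. Both had q = 0.000775 per the authors' deposited table, and both enzymes are also used outside red cells. Alas2, the red-cell form of the first enzyme, did not pass, at 14.2 FPKM in Ret null gut and 17.3 FPKM in wildtype gut (-0.28 ± 0.23, q = 0.155 per the authors' deposited table).

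Of 21 tested red cell proteins 9 rose and 0 fell. Hemgn, a nuclear protein of blood precursors, rose by 1.62 ± 0.41 (q = 0.000775 per the authors' deposited table). Car2, a carbonic anhydrase that other tissues also express, rose by 0.72 ± 0.21, and Tfrc, the transferrin receptor, by 0.35 ± 0.17 (q = 0.00797 per the authors' deposited table). The anion exchanger Slc4a1, an abundant red cell membrane protein, was at 16.5 FPKM in Ret null gut and 18.1 FPKM in wildtype gut (-0.13 ± 0.18) and did not pass. The erythropoietin receptor Epor was at 3.53 FPKM in Ret null gut and 1.92 FPKM in wildtype gut (q = 0.0133 per the authors' deposited table). With the normal p, Tfrc and Epor did not pass (adjusted p 0.409 and 0.359). Alas2, Slc4a1 and Epor belong to the erythroid markers used here.

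Markers of other cells were measured beside the globins. The 12 hepatic markers summed to 349 FPKM in Ret null gut and 32.9 FPKM in wildtype gut, with none at 0 and a median log2 fold change of 3.24. Alb (albumin) was at 72.8 FPKM in Ret null gut and 0.433 FPKM in wildtype gut, and Afp (alpha-fetoprotein) at 148 FPKM in Ret null gut and 4.68 FPKM in wildtype gut. Apoa2, an apolipoprotein gene, was at 25.2 FPKM in Ret null gut and 1.34 FPKM in wildtype gut, and the fibrinogen gene Fgb at 4.06 FPKM in Ret null gut and 0.381 FPKM in wildtype gut. These markers were higher in Ret null gut, as was Beta-s, and their part in the globin changes was not tested. Over all tested lines 8.88% were called lower and 5.69% higher, which is the background for the next 3 lists. Of 8 endothelial markers 3 fell and 0 rose (Emcn at -0.62, Tek at -0.47 and Kdr at -0.47), with 0 called by the normal p, and the list summed to 153 FPKM in Ret null gut and 181 FPKM in wildtype gut. Of 8 tested megakaryocyte and platelet markers 0 were called, with 2 at an unadjusted p under 0.05 and 0 with the normal p. Pf4, a platelet chemokine gene, stood at 13.7 FPKM in Ret null gut and 20.7 FPKM in wildtype gut (-0.60 ± 0.27). Of 10 macrophage markers 0 were called, with 0 at an unadjusted p under 0.05 and 0 with the normal p, and C1qb and C1qc were at -0.13 and -0.01 on the log2 scale. The part of vessel, platelet and sex differences in the globin changes was not tested.

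**Figure D4:**
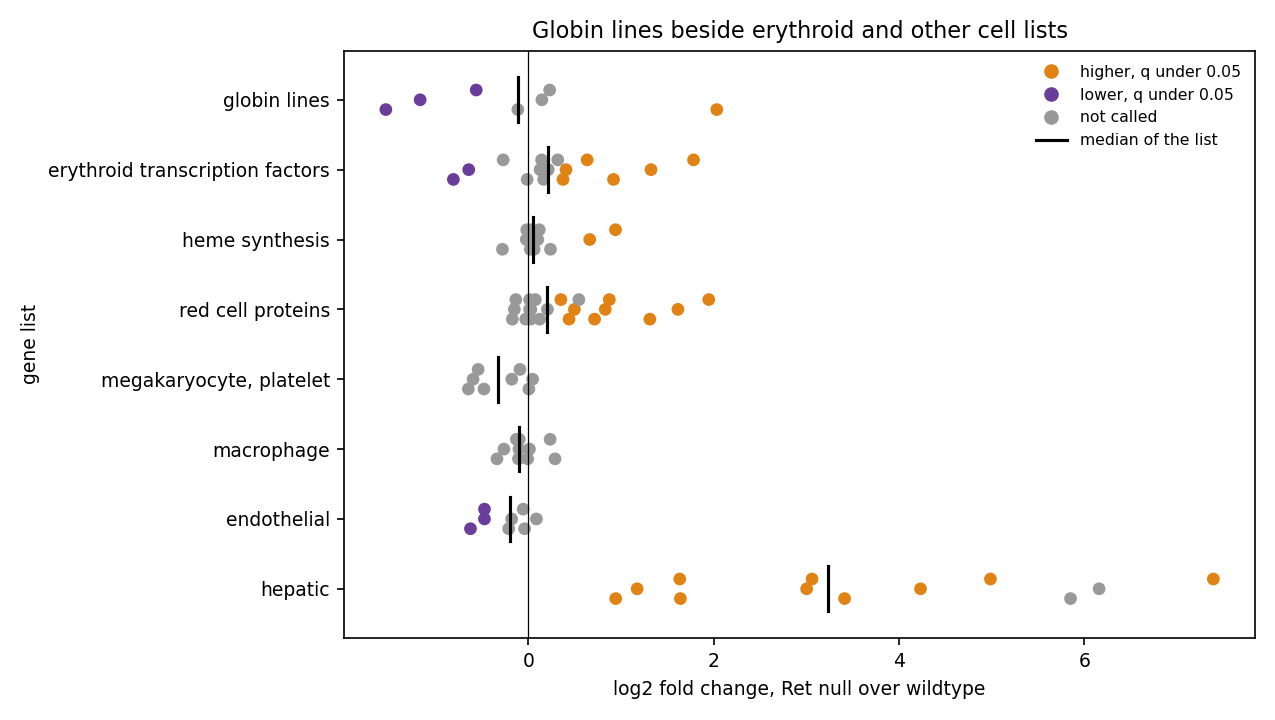
Log2 fold change (Ret null over wildtype) of each tested member of the globin set and of 7 gene lists, 1 point per line, coloured by the authors' call, with the median of each list as a bar. Globin lines spread from -1.54 to 2.03, the 3 erythroid lists have medians of 0.05 to 0.22, and the hepatic list has a median of 3.24.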

How the data were processed

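Polyadenylated RNA from whole guts at stage E10.5 was sequenced as paired 75 bp reads, per the labels and the series text. Per the submitters' processing notes, Picard, TopHat2, Cufflinks and Cuffdiff were used on mm10. No settings or annotation are given in the sources used here. The authors deposited 1 FPKM value per genotype and gene, a test statistic (a score), a p-value and a q-value, per the file headers. The columns name the genotypes by a letter, read as wildtype and homozygous null, as the value of Ret goes. Of 23234 lines, 1 held 2 records run together and was dropped. The authors had tested 13430. Adjusting their p-values by Benjamini-Hochberg gives their q-values to within 5.9e-05. The smallest p, 5e-05, is shared by 867 lines.

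Log2 fold changes were recomputed from FPKM, because 590 deposited cells hold an error text. With no value per sample, no replicate test could be run, the 3 samples per genotype count only inside the authors' statistic, and p-values may measure technical spread. The alternative "normal p" takes the statistic as a normal deviate, adjusted over all tested lines but 8 without a statistic. Its calculation was run on simulated normal deviates, which cannot show whether the authors' statistic is a normal deviate. The globin members, gene lists and tests were chosen with earlier results of these data known. Named genes were all members, Ret, Xist, in each list at most 4 of the called genes, ordered by q and then by size of change (with none called, the 2 of highest mean), and neighbours at 1 FPKM or more. Genes of enteric crest, endoderm and muscle lists are given as counts only. A gene that the rule takes is not reported here. Hbb-bt, Hbb-bs and Ahsp were looked for and had no line under these symbols. Sequences came from RefSeq (6 of 7 promoters matched) and GENCODE M21, both on the mm10 assembly. Python 3.11.15, pandas 2.3.3 and SciPy 1.17.1 were used.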

Additional observations from a re-analysis of the deposited data

How the results depend on the processing

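No paired analysis was possible because the table gives 1 value per genotype, and for the same reason leaving out replicates and fitting a replicate block were not run. The 3 globin lines called lower and the 1 called higher were the same in number at q under 0.01 and q under 0.1. Only Hbb-y changed its side of a threshold, with the normal p (adjusted p 0.0996) and with a 1.5-fold minimum. Adding 1 or 0.1 FPKM, centring on the median of tested lines or rescaling to lines outside the globins reversed no globin line (log2 fold changes of Beta-s 1.98 to 2.03, Hba-x -1.23 to -1.17, Hbb-bh1 -1.60 to -1.53, Hbb-y -0.62 to -0.56).

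At q under 0.01, 1 of 15 erythroid factors fell and 1 rose, and 4 of 21 tested red cell proteins rose and 0 fell. At that threshold 819 of all 13430 tested lines were lower and 499 higher. Over all lines, 1192 lower and 764 higher calls became 373 and 231 with the normal p. The log2 change of the embryonic to adult ratio, -1.09, was -1.71 without the most abundant line of each class, -2.75 without merged lines and, chosen after seeing the data, -0.83 without Beta-s, -1.28 in the alpha family and -1.63 in the beta family. The alpha to beta change, -0.07, was -0.68 without merged lines, which removes all adult alpha lines. Depth is unknown, so no counting limits can be given.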
